A study of Arabidopsis thaliana with 6 samples.

Results

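OPCL1, MYC3 and MYC4 are genes of jasmonate synthesis and jasmonate signalling in Arabidopsis thaliana, and each is read on the array by 1 probe set annotated to that gene alone (OPCL1, AT1G20510, by 259518_at; MYC3, AT5G46760, by 248864_at; MYC4, AT4G17880, by 254693_at). These are 3 of the 13356 genes read by a probe set of their own, and all 3 passed the filter on dim signals that kept 13648 of 22746 probe sets for the test. RNA of whole seedlings at 9 days of age was compared between the myb3r1 myb3r4 double mutant (3 arrays) and wild type (3 arrays). Per the labels both genotypes are of cultivar Col-0 and grew untreated on agar medium with 2% sucrose at 22 degrees Celsius in continuous light. The labels place 1 array of each genotype in each of 3 experimental sets without saying if a set was a culture of its own, so the p-values reflect the spread among these samples alone, which may be technical. They name neither the mutant alleles nor how many plants were pooled.

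Jasmonate is a lipid hormone of wounding, defence, flower fertility and growth restraint. It is made from fatty acids of the chloroplast and finished in the peroxisome, where OPCL1 attaches coenzyme A to the cyclopentane fatty acid intermediates so that beta-oxidation can shorten them. The active form, jasmonoyl-isoleucine, brings the receptor COI1 together with JAZ repressors, and their breakdown frees MYC2, MYC3 and MYC4, closely related bHLH transcription factors that act in part redundantly on genes of the wound response and of glucosinolate synthesis. MYB3R1 and MYB3R4 encode transcription factors of the MYB class that activate genes needed for cell division. The comparison asked whether transcripts of this branch of hormone synthesis and signalling differ when both are mutated.

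Each level below is the log2 of a signal over its array's median, so 0 is the level of the median probe set. Brightness depends on the probes, so levels are compared between arrays and not between genes. A difference is myb3r1 myb3r4 minus wild type on the log2 scale, fitted in limma with a block for the set, and adjusted p-values are Benjamini-Hochberg values over all 13648 probe sets tested, with a threshold of 0.05. With 3 arrays of each genotype, the array number limits the precision. No named probe set reads MYB3R1 or MYB3R4, so the genotypes were not checked by those transcripts. Genes listed as markers of green tissue and of root were both read. RCA, encoding Rubisco activase, was at 6.70 to 6.99 in the mutant and 6.33 to 6.57 in wild type. PYK10, a beta-glucosidase gene of root ER bodies, was at 5.75 to 6.54 in the mutant and 5.64 to 6.31 in wild type. Of the other named root markers, NAI2, AT5G17820 and AT4G11290 lay above the array median in every array. EXPA7 was too dim for the test, at -1.85 to -0.47 in the mutant and -2.50 to -0.44 in wild type. In such whole-seedling RNA, fewer cells of a type and less RNA per cell cannot be told apart.

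None of the 3 genes passed the test, where 0.528% of all tested probe sets did. OPCL1 had the largest difference of the 3, and its difference was highest in set 2, where wild type had the lowest and the mutant the highest level of all arrays. The same held for MYC3. The difference of MYC4 was also highest in set 2, as in 36.7% of all tested probe sets. MYC3 and MYC4 had fitted differences near 0, with both signs among the sets. MYC4 differed between the experimental sets, in both genotypes, far more than between the genotypes.

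**Figure D1:**
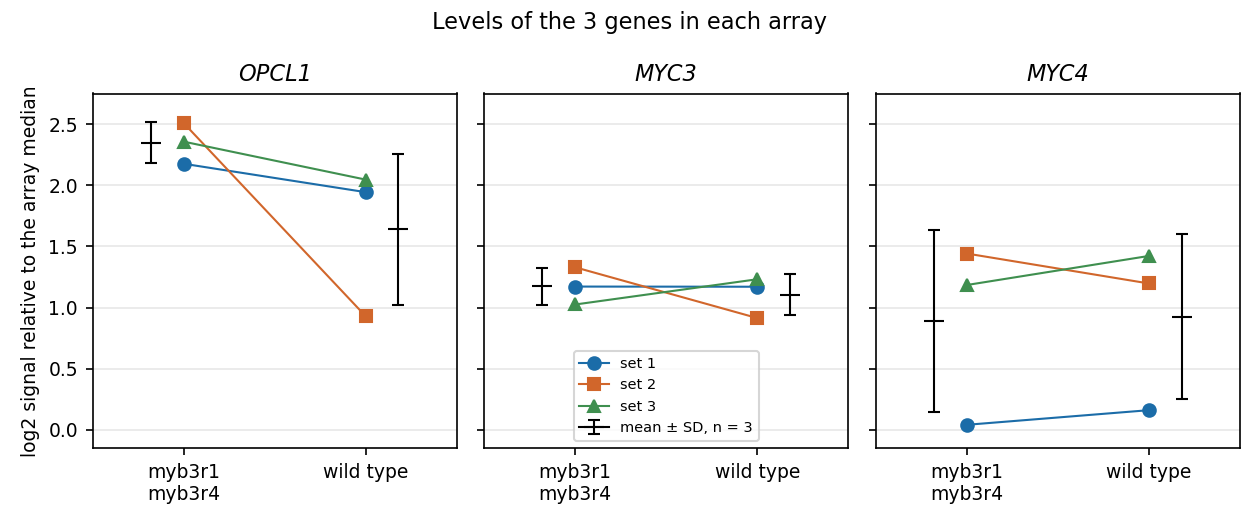
Level of OPCL1, MYC3 and MYC4 (log2 signal relative to the array median) in each array, myb3r1 myb3r4 on the left and wild type on the right of each panel. Lines join the 2 arrays of a set, and black bars are the mean ± SD (n = 3). For OPCL1 the wild-type array of set 2, at 0.93, lies 1.01 below the next array, and for MYC4 both arrays of set 1 lie near 0.

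OPCL1, the synthesis gene, had levels of 2.18, 2.51 and 2.36 in the mutant arrays of sets 1 to 3, against 1.94, 0.93 and 2.05 in the wild-type arrays. All mutant arrays lay above all wild-type arrays, by a gap of 0.13 between the lowest mutant and the highest wild-type array, and such a separation upward was found for 8.15% of all tested probe sets. The mutant arrays spanned 0.33 and the wild-type arrays 1.12, because wild type of set 2 stood 1.01 below the next array. The mean was 2.35 ± 0.17 in the mutant and 1.64 ± 0.62 in wild type (SD, n = 3 each).

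The OPCL1 differences within the sets were 0.23, 1.58 and 0.31, or 1.17-fold, 2.99-fold and 1.24-fold. The fitted difference was 0.71 (SE 0.25, limma, 95% interval 0.14 to 1.28), a 1.63-fold higher level in the mutant with an interval of 1.10-fold to 2.42-fold. Its unadjusted p in limma was 0.0204, where 17.4% of all tested probe sets had one under 0.05, and its adjusted p was 0.217. The interval excluded 0, and the difference did not pass the adjustment over all probe sets. Without set 2 it was 0.27 (95% interval -0.09 to 0.64, adjusted p = 0.588 in limma), and without set 1 it was 0.94 and passed (adjusted p = 0.0295 in limma).

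With limits set after the OPCL1 values were seen, 2.12% of the tested probe sets had a difference above 1 in set 2 and below 0.5 in both other sets, as OPCL1 had. In 3.89% the genotypes separated upward with the wild-type array of set 2 lowest of all, as for OPCL1. A sign of RNA quality, the mean 3' minus 5' signal of 6 pairs of control probe sets for actin, GAPDH and ubiquitin, also varied with the sets. It was 1.50, 1.92 and 2.44 in the mutant arrays of sets 1 to 3 and 1.07, 3.04 and 3.22 in the wild-type arrays, so the mutant minus wild-type difference was 0.44, -1.12 and -0.78. The OPCL1 difference was highest in the set where this difference was lowest. Root markers varied with the sets as well. Their summed level, as log2 of the summed signals of 5 named genes over the array median, was, set by set, 6.84, 6.70 and 6.12 in the mutant, against 6.69, 6.04 and 5.95 in wild type. Most of this sum is PYK10, which alone had 6.54, 6.33 and 5.75 in the mutant and 6.31, 5.68 and 5.64 in wild type. In the mutant 2, 5 and 4 of the 5 were higher than in wild type in sets 1 to 3. The median differences were -0.03, 0.65 and 0.12, so this shift too was highest in set 2. Without EXPA7, which was too dim for the test, the medians were -0.18, 0.71 and 0.12. Both named green shoot markers were higher in the mutant in every set. No tested marker of root or green shoot passed in limma, where 0.528% of all tested probe sets did. Of all tested probe sets 58.3% had a positive fitted difference. The part of the root marker shift in the OPCL1 difference was not tested. With the control 3' minus 5' signal as a covariate the OPCL1 difference was 0.39 (95% interval -0.10 to 0.87, adjusted p = 0.430 in limma). That fit leaves 1 residual degree of freedom, so it cannot tell how much of the difference goes with RNA quality.

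MYC3, a bHLH activator held back by JAZ repressors, had levels of 1.17, 1.33 and 1.02 in the mutant and 1.17, 0.91 and 1.23 in wild type, sets 1 to 3. The genotypes overlapped, and the mutant array was level with its wild-type partner in set 1, above it in set 2 and below it in set 3. Differences of both signs among the sets, as MYC3 and MYC4 had, were found for 58.2% of all tested probe sets. The differences within the sets were 0.0013 in set 1, 0.42 in set 2 and -0.21 in set 3. The mean was 1.17 ± 0.15 in the mutant and 1.10 ± 0.17 in wild type (SD, n = 3 each). The fitted difference was 0.07 (SE 0.16, adjusted p = 0.848 in limma), with a 95% interval of -0.30 to 0.44, or 0.81-fold to 1.36-fold. A change larger than these folds in either direction lies outside the interval, and smaller ones could not be resolved with these arrays. All 6 MYC3 levels lay within 0.42, and the MYC3 levels did not differ detectably between the sets either (F test in limma, adjusted p = 0.980).

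MYC4, which acts beside MYC2 and MYC3, had levels of 0.04, 1.44 and 1.18 in the mutant and 0.16, 1.20 and 1.42 in wild type, sets 1 to 3. The arrays of set 1 were low in both genotypes and those of sets 2 and 3 were high in both, so the genotypes overlapped over nearly the whole range. The differences within the sets were -0.12, 0.24 and -0.24. The mean was 0.89 ± 0.75 in the mutant and 0.93 ± 0.67 in wild type (SD, n = 3 each), spreads that the block removes. The fitted difference was -0.04 (SE 0.16, adjusted p = 0.920 in limma), with a 95% interval of -0.39 to 0.32, or 0.76-fold to 1.25-fold. Without the block the SE was 0.44 and the interval -1.04 to 0.96.

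The difference of MYC4 between sets was tested after its values were seen. Averaged over the genotypes its level was 1.32 in set 2 and 1.30 in set 3, against 0.10 in set 1, which is 2.33-fold and 2.30-fold higher than in set 1 (F test in limma, adjusted p = 0.0117). Of all tested probe sets 8.61% passed this test, and 3.39% passed it with set 1 the lowest. The control 3' minus 5' signal was also lowest in set 1, at 1.50 in the mutant and 1.07 in wild type, against 1.92 to 2.44 in the mutant and 3.04 to 3.22 in wild type in the other sets. Its part in the MYC4 levels was not tested. OPCL1 gave no call in the same test between sets (adjusted p = 0.504).

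Few other genes of the pathway could be read by name. Of 63 listed genes of jasmonate synthesis, perception, MYC factors and response, 6 had a named probe set and 5 were tested. OPCL1, MYC3 and MYC4 are themselves among the 5, which leaves AIM1 and PDF1.2 as the other tested genes. Of the 5, 4 had positive and 1 a negative difference, 1 passed higher and 0 passed lower. The median of 0.28 was the difference of AIM1. Over all tested probe sets 58.3% had a positive difference, 0.388% passed higher, 0.139% passed lower and the median was 0.06. Set by set the median of the list was 0.0013 (the value of MYC3), 0.64 and 0.26 (both of AIM1). The control 3' minus 5' differences were 0.44, -1.12 and -0.78, and the medians of the tested root markers were -0.18, 0.71 and 0.12. Without set 2 the list median was 0.10 and without set 1 it was 0.45. With quantile normalization or the control covariate the list median was 0.11 or 0.087. None of the 15 genes of perception and repression, COI1 and the JAZ genes among them, had a named probe set, nor did MYC2. The list therefore does not show how these genes behaved.

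Of the 22 synthesis genes 2 were named and tested, OPCL1 and AIM1. AIM1 encodes a multifunctional protein of peroxisomal beta-oxidation, the steps that follow OPCL1. Its levels were 3.56, 3.68 and 3.38 in the mutant and 3.61, 3.04 and 3.12 in wild type, so the genotypes overlapped, with set 1 as the set where wild type was higher. Its differences in sets 1 to 3 were -0.06, 0.64 and 0.26, highest in set 2 like those of OPCL1, MYC3 and MYC4, as in 36.7% of the tested probe sets. The fitted difference of AIM1 was 0.28 (SE 0.17, adjusted p = 0.402 in limma).

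Among response genes, the defensin gene PDF1.2 was the 1 gene of the pathway list that passed. It had levels of 6.77, 6.42 and 6.16 in the mutant and 6.04, 4.82 and 4.34 in wild type, with no overlap. Such a separation upward was found for 8.15% of all tested probe sets. PDF1.2 rose by 1.38 (SE 0.20, adjusted p = 0.0320 in limma). Its value is uncertain in so far as its probes may also read the near-identical PDF1.2b. ORA47, a transcription factor gene of early jasmonate response, was too dim for the test, at -2.58, -2.58 and -1.75 in the mutant and -2.44, -2.32 and -2.33 in wild type. Its arrays overlapped, and the mutant was below wild type in sets 1 and 2 and above it in set 3.

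A search of the RefSeq names for jasmonate, coronatine or COI1, made after the data were seen, gave 3 further genes, of which 2 were tested. JRG21, whose product oxidises jasmonate, rose by 1.59 (adjusted p = 0.00696 in limma). Its differences were nearly even over the sets, at 1.61, 1.55 and 1.61 in sets 1 to 3. Its levels were not: they were 2.11, 0.14 and 1.28 in the mutant and 0.50, -1.41 and -0.33 in wild type, so the genotypes overlapped. COS1, a lumazine synthase gene first found as a suppressor of a coi1 mutant, had levels of 3.60, 3.34 and 3.29 in the mutant and 3.20, 2.59 and 2.45 in wild type. The COS1 genotypes did not overlap, with the mutant arrays all higher, as in 8.15% of all tested probe sets. Its difference of 0.66 (SE 0.15) had an unadjusted p of 0.00194 and an adjusted p of 0.101 in limma, short of the threshold. JMT, which encodes the enzyme that makes methyl jasmonate, was too dim for the test, at -3.54 to -0.92 in the mutant and -2.44 to -0.83 in wild type.

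**Figure D2:**
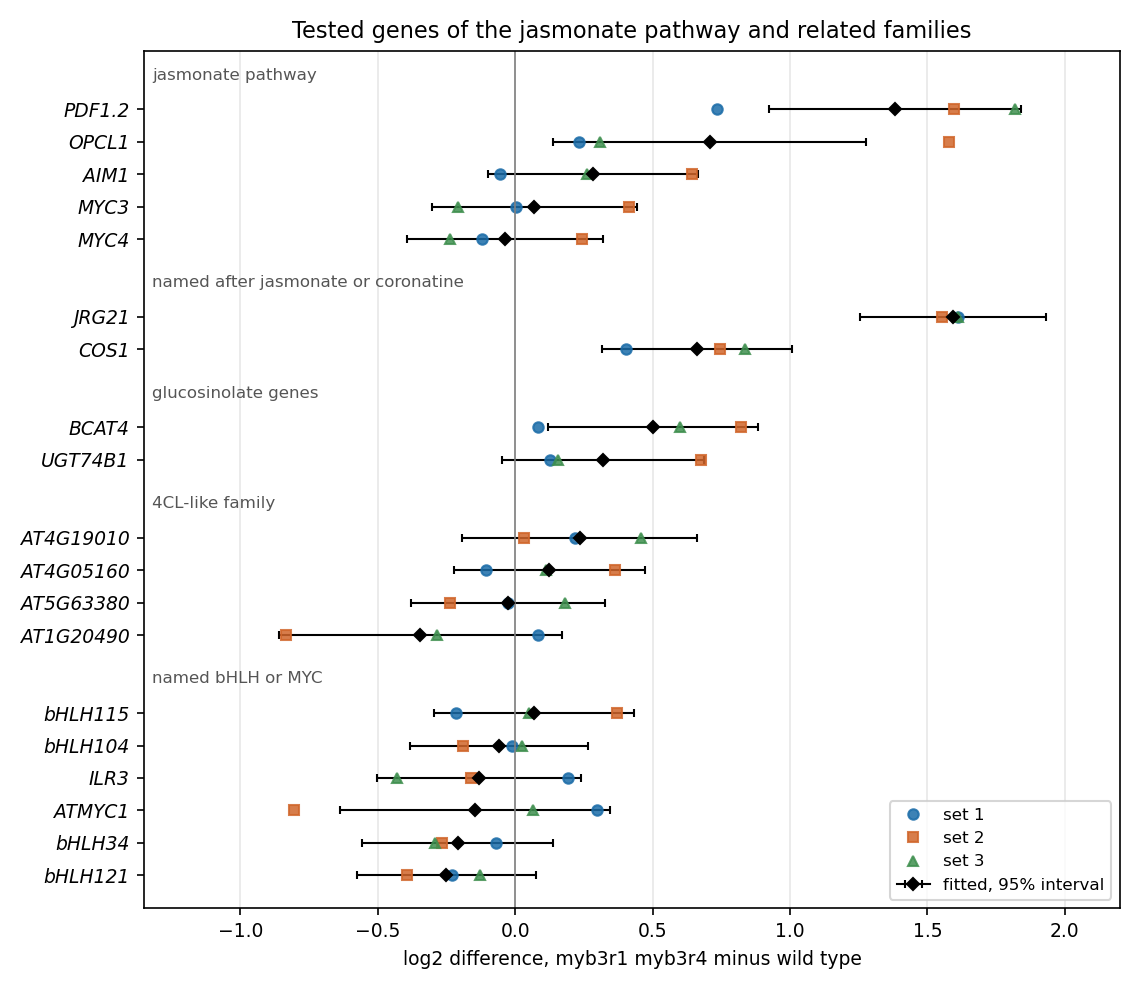
Log2 differences, myb3r1 myb3r4 minus wild type, of every tested gene of the lists other than the green shoot and root markers. Sets 1, 2 and 3 are coloured points, and the fitted difference with its 95% interval is in black. PDF1.2 and JRG21 lie well right of 0 in all sets, OPCL1 is far right in set 2 only, at 1.58, and MYC3 and MYC4 straddle 0.

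Glucosinolate synthesis is regulated by MYC2, MYC3 and MYC4 together with MYB factors. Of 21 listed genes 2 were named and tested, both with positive differences, as had 58.3% of all tested probe sets, and 0 passed in limma, where 0.528% of all did. BCAT4, an aminotransferase of methionine chain elongation, had levels of 5.03, 5.04 and 5.17 in the mutant and 4.95, 4.21 and 4.57 in wild type. The genotypes did not overlap, and all mutant arrays lay above all wild-type arrays, as in 8.15% of all tested probe sets. The difference of BCAT4 was 0.50 (SE 0.17, adjusted p = 0.205 in limma). UGT74B1, a glucosyltransferase gene of the core pathway, had a difference of 0.32 (SE 0.16, adjusted p = 0.335 in limma), with 0.13, 0.68 and 0.16 in sets 1 to 3. For both genes, as for OPCL1, MYC3 and AIM1, the wild-type array of set 2 was the lowest of the 6. It held that position in 20.8% of all tested probe sets.

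OPCL1 belongs to a family of 4-coumarate:CoA ligase-like (4CL-like) enzymes and in RefSeq's order ends a row of 4 such neighbouring genes, AT1G20480, AT1G20490, AT1G20500 and OPCL1. Of 13 listed family genes 8 had a named probe set and 5 were tested, 3 with positive and 2 with negative differences, none passing in limma, with a median of 0.12. OPCL1 itself is among the 3. Over all tested probe sets 58.3% of differences were positive, 0.528% of probe sets passed and the median was 0.06. The neighbour AT1G20490 had levels of -0.64, -1.44 and -0.47 in the mutant and -0.72, -0.60 and -0.18 in wild type. Its difference was -0.34 (SE 0.23, adjusted p = 0.451 in limma), and in set 2, where OPCL1 had its highest difference of 1.58, that of AT1G20490 was -0.83. AT1G20480 and AT1G20500 were too dim for the test, with levels of -4.32 to -2.93 and -6.81 to -4.12 in the mutant and -6.18 to -1.76 and -6.49 to -3.20 in wild type. The brighter AT4G05160 differed by 0.12 (SE 0.15) and AT4G19010 by 0.24 (SE 0.19), both short of the threshold. Probe sequences were not used here, so reads of one relative's transcript by another's probes were not tested.

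For MYC3 and MYC4 the wider family was taken as the genes whose RefSeq names contain bHLH or MYC with a number, a search made after the data were seen. It held 10 genes with a named probe set, MYC3 and MYC4 among them. Of these 10, 8 were tested: 2 had positive and 6 negative differences, none passed in limma, and the median was -0.10. Over all tested probe sets 58.3% of differences were positive and 0.528% of probe sets passed. The differences ranged from -0.25 for bHLH121 (SE 0.14), a regulator of iron uptake, to 0.07 for both MYC3 and bHLH115. ATMYC1, a bHLH gene of epidermal cell fate, had levels of 0.19, 0.32 and 1.02 in the mutant and -0.11, 1.12 and 0.96 in wild type. ATMYC1, like MYC4, was at its lowest in set 1 in both genotypes, and its difference was -0.15 (SE 0.22, adjusted p = 0.748 in limma).

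The genes whose levels ran most like those of each member over the 6 arrays were sought among 7306 other tested probe sets with 1 gene. The measure was Pearson's r of the log2 levels, given as a description, since arrays share sets and genotypes and so many candidates yield high values by selection. Low or high arrays that the genes found share with a member follow from the same selection. Nearest to OPCL1 were AT1G26550, AT1G02750 and AT4G23730, with r of 0.992, 0.987 and 0.986. All 3 had their lowest level in the wild-type array of set 2, AT1G26550 at 4.08 there and at 4.52 to 4.73 in the other arrays, and their fitted differences of 0.26, 0.32 and 0.20 were smaller than that of OPCL1 and did not pass. Nearest to MYC3 were AT4G26470, AT5G35160 and AT3G26440, with r of 0.978, 0.953 and 0.947. Nearest to MYC4 were AT5G04880, CHL and NET1D, with r of 0.994, 0.993 and 0.992, and all 3 were low in both arrays of set 1: NET1D, which encodes a protein of the actin-binding NET family, had 0.53, 1.59 and 1.51 in the mutant and 0.69, 1.45 and 1.76 in wild type. CHL, a chloroplast lipocalin gene, spanned 3.07 to 3.50 in the mutant and 3.10 to 3.51 in wild type.

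**Figure D3:**
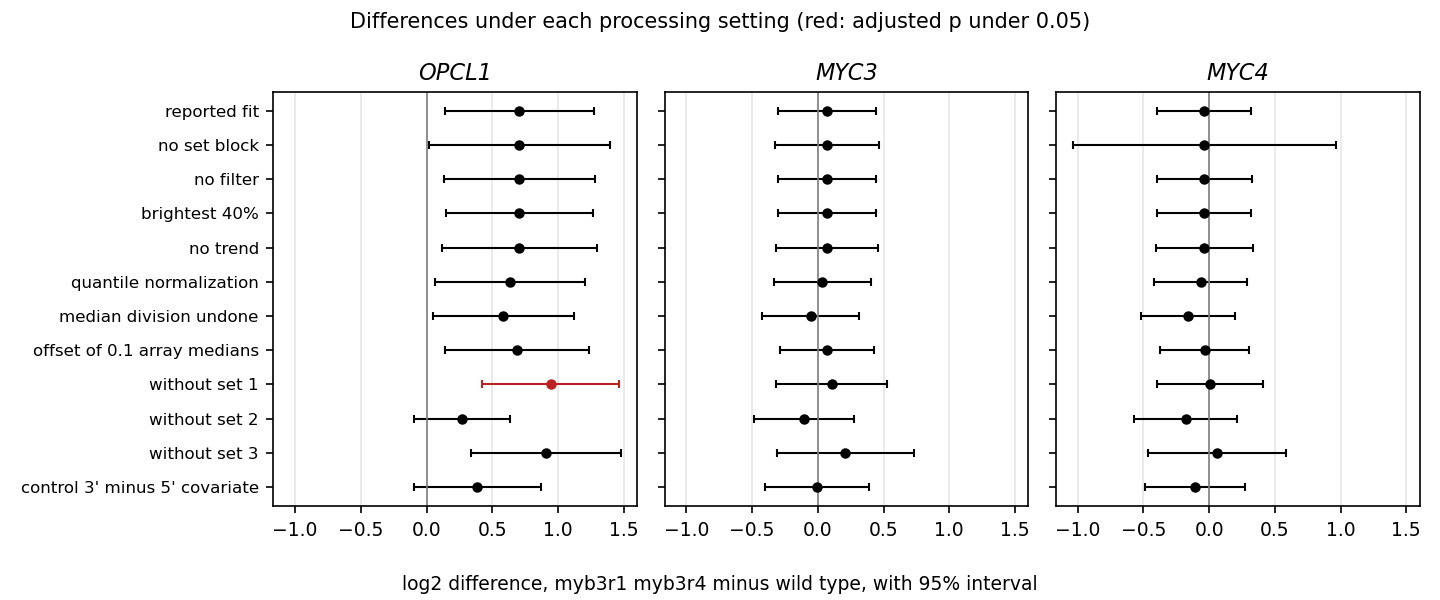
Fitted log2 difference (myb3r1 myb3r4 minus wild type) with its 95% interval for OPCL1, MYC3 and MYC4 under the reported fit and 11 other processing settings, with adjusted p under 0.05 in red. OPCL1 stays above 0 throughout, from 0.27 without set 2 to 0.94 without set 1, where alone it passes, while MYC3 and MYC4 lie on both sides of 0.

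Across the 11 other settings the OPCL1 difference was positive each time, as the plot of settings shows. It passed in 1 of them, the fit without set 1, in which the share of all tested probe sets called was also far larger (1107 called, against 72 in the reported fit). MYC3 and MYC4 passed in none of the 11. Undoing the scaling of arrays to their own medians shifted the median difference of the 13648 probe sets by -0.12, to -0.07 in place of 0.06. Measured from that median, the differences were 0.65 for OPCL1, 0.01 for MYC3 and -0.10 for MYC4. They are the same with and without that scaling by construction, since it shifts all probe sets of an array alike. With quantile normalization, the differences measured from the median were 0.65 for OPCL1, 0.04 for MYC3 and -0.05 for MYC4.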

How the data were processed

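Transcripts were measured on Affymetrix arrays, 1 per sample. Per the submitters' processing notes the authors used MAS5, which turns each probe set into 1 signal; no version is stated there. The values as deposited are log2 signals, and each column has a median of 0, so the arrays were divided by their median before deposit, as the values show and no label states. The whole multiples of 1 smallest step, found in 100% of values below 3000 steps (tolerance 0.02 step), show the log base. A single value, the log2 of 1e-10, was set to that step.

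Names came from the platform annotation and RefSeq's gene table (TAIR10.1): the 22746 probe sets divide into 13513 with 1 gene (13436 of them found in RefSeq), 503 with several and 8730 without any. A probe set without a name is unnamed here, not without a gene. The brightest 60% (13648) were fitted with limma 3.58.1 in R 4.3.3 (lmFit, eBayes with a trend; 2 residual and 6.79 prior degrees of freedom). The labels name the shared set, used as a block; the 2 arrays of a set deviated together (correlations 0.67, 0.28 and 0.62). The fit was tested on simulated data with 200 changed probe sets and errors drawn independently for each array. It called 96.4% of the 2-fold and 100% of the 4-fold changes, and on average 17.2 unchanged probe sets.

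Members and lists were chosen with earlier results of these data known. Named are the members, the tested genes of each list past the threshold, brightest or most different, and the 3 genes nearest each member. Alternatives were the block, filter, trend, normalization, offset, each set left out and a control-signal covariate. No sequences were used.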

Additional observations from a re-analysis of the deposited data

How the results depend on the processing

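The OPCL1 difference was positive in the 11 other settings tried (0.27 to 0.94 on leaving out a set, adjusted p = 0.0295 where set 1 was left out and 0.588 where set 2 was; 0.39 with the control covariate). The cause of the call without set 1 was not tested, and 2 sets leave 1 residual degree of freedom, as does the fit with the covariate. The MYC3 difference was -0.054 with the median division undone, -0.0034 with the covariate and -0.10 to 0.21 on leaving out a set. That of MYC4 was -0.18 to 0.063 on leaving out a set. These changes of sign lie within the intervals, and the cause was not tested. Without the replicate block the values of the 3 genes are the same, none passed (adjusted p = 0.739 for OPCL1), and 1 probe set of all was called in place of 72. The count was 14 with no filter, 43 among the brightest 40%, 107 to 1107 on leaving out a set and 194 with the covariate. With the median division undone 55.4% of calls were higher, in place of 73.6%. The 4CL-like median of 0.12 was -0.000112 with quantile normalization, -0.000366 with the division undone, 0.000921 with the covariate and 0.079 to 0.24 on leaving out a set. The median of genes named bHLH or MYC was -0.18 with quantile normalization, -0.22 with the division undone and -0.17 to -0.042 on leaving out a set. That of JRG21 and COS1 was 1.004 with the division undone and 0.66 among the brightest 40%, which leaves out JRG21. The pathway median of 0.28 was 0.11 with quantile normalization, 0.16 with the division undone, 0.087 with the covariate and 0.10 to 0.45 on leaving out a set. That of the 2 glucosinolate genes, 0.41, was 0.20, 0.29, 0.23 and 0.24 to 0.56 in the same order. Signal over background was not assessed, since detection calls were not used here.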
